A study of Mus musculus with 8 samples.

Results

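Cytochrome c oxidase, complex IV of the mitochondrial respiratory chain, passes electrons from cytochrome c to oxygen. Its catalytic core is encoded by mitochondrial DNA, and a set of small nuclear-encoded subunits surrounds that core. Several of these small subunits exist as paralogs, with a form found in most tissues and a form restricted to lung, striated muscle or testis. The genes described here are 10 such paralogs, chosen by gene name: Cox4i1, Cox4i2, Cox6a1, Cox6a2, Cox6b1, Cox6b2, Cox7a1, Cox7a2, Cox7a2l and Cox8a. Of these, 9 had a row among the 38991 gene identifiers of the files, and Cox4i1 was not analysed here. The family was taken up after the lower level of Cox6b2 in iPKO cells had been seen, so the differences between iPKO and iPHet libraries are given for its members as a description. Calls of the fit across all genes are counted for the members once, beside the share called among all genes, and nothing is read from them.

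RNA was sequenced from C57BL/6 mouse embryonic stem cells, which derive from blastocysts of embryonic day 3.5 and were kept in 2i ground state medium. The 4 iPKO libraries carry the induced deletion of Prmt5, which encodes an arginine methyltransferase of spliceosomal Sm proteins, and the 4 iPHet libraries are the controls, whose name reads as heterozygous. Cells of both genotypes received 2 µM 4-hydroxytamoxifen for 48 hours and then fresh medium, so the controls share the exposure to the inducing drug. The labels name a single male line per genotype for most experiments (PC4 for iPKO, PC1 for iPHet), so genotype and line cannot be told apart, and nothing in them tells whether the 4 libraries were grown as separate cultures. The spread behind each p-value is that among these libraries and may be technical.

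Prmt5 stood at 11.8, 14.5, 12.4 and 14.996 FPKM in iPKO libraries 1 to 4, against 52.8, 70.8, 54.3 and 72.2 FPKM in iPHet libraries 1 to 4. FPKM, the fragment count scaled to transcript length and library size, was the deposited unit, and no counts came with it, so the depth behind each value is unknown. On the log2(FPKM + 1) scale Prmt5 fell by 2.13 (SE 0.13, limma adjusted p = 0.000171). Libraries with the same parity were much alike: the SD of the log2 difference over 8139 protein-coding genes within a genotype was 0.164 to 0.176 for libraries 1 with 3 and 2 with 4, and 0.375 to 0.415 for the other pairs. Changes are therefore also given within the odd-numbered libraries (1 and 3) and within the even-numbered ones (2 and 4). With the similar libraries averaged, 2 against 2, the limma adjusted p of Prmt5 was 0.191, and 0.0809 with an odd/even term. Of 5 stem cell markers 1 was called: Sox2 fell, at 70.1 ± 2.15 FPKM in iPKO and 91.8 ± 5.31 FPKM in iPHet libraries (SD, n = 4 each, limma adjusted p = 0.00539; 0.536 with the similar libraries averaged). With the replicate number as a block 3 were called, all lower in iPKO: Sox2, Esrrb and Zfp42. The shares called among all genes tested were 15.8% (9.53% lower) without the block and 27.5% (16.6% lower) with it. Esrrb averaged 224 ± 8.35 FPKM in iPKO and 257 ± 16.8 FPKM in iPHet libraries, and Zfp42 36.6 ± 3.08 FPKM in iPKO and 43.0 ± 4.42 FPKM in iPHet libraries (SD, n = 4 each). Pou5f1 averaged 260.3 ± 26.7 FPKM in iPKO and 298 ± 42.7 FPKM in iPHet libraries, and Nanog 319 ± 13.4 FPKM in iPKO and 313 ± 26.2 FPKM in iPHet libraries (SD, n = 4 each). The summed FPKM of the 5 was 899 to 932 in iPKO and 911 to 1087 in iPHet libraries. Of 7 markers of the feeder fibroblasts on which the lines were derived, only Thy1 passed 1 FPKM, Postn and Lum were listed at 0 in all libraries, and the summed FPKM was 0.977 to 1.77 in iPKO and 1.33 to 2.44 in iPHet libraries.

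The promoter windows of the Cox6b and Cox7a pairs are shown because these are the pairs in which both paralogs were expressed. Each window holds 250 bases before and 50 bases after the RefSeq start site on GRCm38.p6, read 5′ to 3′ on the strand of the gene, and the capitals mark every match, on either strand, to one of 6 motifs. These motifs were the CCAAT box (CCAAT), the GC box (GGGCGG), the core bound by ETS factors (CCGGAA), the core bound by NRF1 (GCGCA and GCGC with any 1 base between), the E-box (CACGTG) and an E2F core (GCGGGAA). Cox6b2 lies at chr7:4753045-4753344 on the minus strand, Cox6b1 at chr7:30626065-30626364 on the minus strand, Cox7a1 at chr7:30183921-30184220 on the plus strand and Cox7a2 at chr9:79759804-79760103 on the minus strand.
Cox6b2: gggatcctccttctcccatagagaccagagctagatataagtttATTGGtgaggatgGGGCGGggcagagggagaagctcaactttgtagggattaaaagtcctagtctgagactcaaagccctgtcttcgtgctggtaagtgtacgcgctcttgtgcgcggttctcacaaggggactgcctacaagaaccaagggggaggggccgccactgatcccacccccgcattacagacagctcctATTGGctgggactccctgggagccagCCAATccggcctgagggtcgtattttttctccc
Cox6b1: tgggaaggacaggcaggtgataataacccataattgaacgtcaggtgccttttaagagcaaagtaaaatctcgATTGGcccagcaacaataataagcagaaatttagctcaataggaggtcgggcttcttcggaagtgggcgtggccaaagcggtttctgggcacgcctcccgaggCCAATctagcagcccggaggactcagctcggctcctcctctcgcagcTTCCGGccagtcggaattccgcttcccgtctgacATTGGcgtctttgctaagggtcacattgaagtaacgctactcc
Cox7a1: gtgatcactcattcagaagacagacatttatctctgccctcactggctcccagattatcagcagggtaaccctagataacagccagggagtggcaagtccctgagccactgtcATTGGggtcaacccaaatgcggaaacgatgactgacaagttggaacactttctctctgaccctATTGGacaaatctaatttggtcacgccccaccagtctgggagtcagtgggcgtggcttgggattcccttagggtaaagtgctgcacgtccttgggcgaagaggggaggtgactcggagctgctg
Cox7a2: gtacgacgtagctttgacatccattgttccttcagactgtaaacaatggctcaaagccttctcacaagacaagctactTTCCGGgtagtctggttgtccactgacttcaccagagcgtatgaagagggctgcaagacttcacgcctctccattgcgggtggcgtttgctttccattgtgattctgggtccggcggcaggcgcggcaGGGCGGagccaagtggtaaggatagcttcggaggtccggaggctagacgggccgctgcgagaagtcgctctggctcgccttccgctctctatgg

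Promoter windows were found for 7 of the 9 genes. The ETS core occurred once each in the windows of Cox6a1, Cox6b1 and Cox7a2 and 3 times in that of Cox8a, while those of Cox6b2, Cox7a1 and Cox7a2l held no match. The CCAAT box was present in 5 of the 7 windows, the GC box in 4 and the NRF1 core in 1, that of Cox6a1. The E-box and the E2F core were found in 0 of the 7. Among all 32851 windows of this length, the ETS core was found in 14.9%, the CCAAT box in 37.4%, the GC box in 35.7%, the NRF1 core in 4.60%, the E-box in 7.15% and the E2F core in 4.60%. The number of CpG dinucleotides was 10 in the Cox6b2 window and 7 in the Cox7a1 window, against 17 for Cox6b1 and 20 for Cox7a2, with a median of 7 over all windows. A match is a string of letters and does not show that a factor binds there.

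Cox6b1 and Cox6b2 encode alternative forms of subunit 6B, which sits on the face of the enzyme where cytochrome c docks. Cox6b1 is the form of most tissues, and Cox6b2 is known as the testis form. Cox6b2 (ENSMUSG00000051811, chromosome 7 from 4751792 to 4753094 of mm10) stood at 17.3, 10.9, 19.5 and 17.7 FPKM in iPKO libraries 1 to 4, against 61.9, 32.3, 67.0 and 33.1 FPKM in iPHet libraries 1 to 4. The genotypes did not overlap, and the odd-numbered iPHet libraries were the highest. The mean was 16.3 ± 3.79 FPKM in iPKO and 48.6 ± 18.5 FPKM in iPHet libraries (SD, n = 4 each), 2.97-fold lower in iPKO. The log2 difference was -1.47 (SE 0.29), with -1.75 among odd-numbered and -1.18 among even-numbered libraries. The ratio was thus 3.497-fold lower in the odd-numbered and 2.29-fold lower in the even-numbered iPKO libraries.

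Cox6b1 (ENSMUSG00000036751, chromosome 7 from 30616974 to 30626151 of mm10) stood at 135, 166, 141 and 170 FPKM in iPKO libraries 1 to 4, against 224, 169, 222 and 177 FPKM in iPHet libraries 1 to 4. The genotypes overlapped, and only the odd-numbered libraries stood apart by genotype. The log2 difference was -0.37 (SE 0.12) over the 8, -0.69 between odd-numbered and -0.043 between even-numbered libraries. The deposited FPKM of Cox6b1 lay above the authors' own upper bound in all 8 libraries, which bears on its level relative to other genes. Neither Cox6b transcript shared a stretch of 50 bases with a transcript of another gene in GENCODE vM21, and neither locus overlapped another gene in the files.

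**Figure D1:**
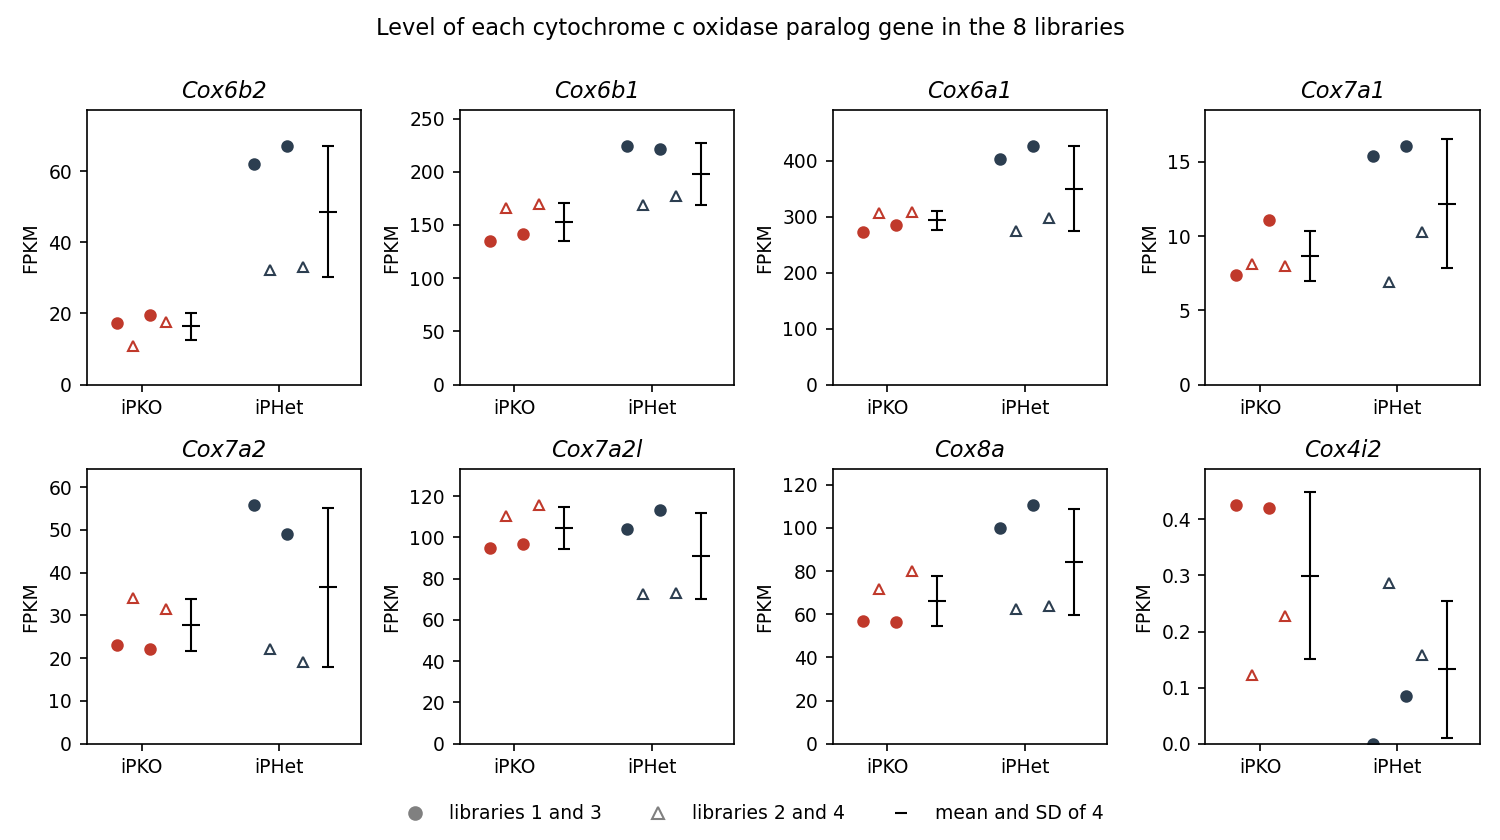
FPKM (vertical axes, each from 0) of 8 of the 9 genes in iPKO and iPHet libraries; filled circles are libraries 1 and 3, open triangles libraries 2 and 4, and the black bar is the mean with SD of the 4 libraries. The Cox6b2 values of iPKO libraries, 10.9 to 19.5 FPKM, all lie below those of iPHet libraries, 32.3 to 67.0 FPKM, while the genotypes overlap in the other panels; Cox6a2, listed at 0 in 7 libraries, is left out.

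Within subunit 6B, Cox6b2 made up 11.4%, 6.14%, 12.1% and 9.42% of the summed FPKM of the pair in iPKO libraries 1 to 4, against 21.6%, 16.0%, 23.2% and 15.8% in iPHet libraries 1 to 4. The highest iPKO share lay below the lowest iPHet share. It averaged 9.78% ± 2.69 in iPKO and 19.2% ± 3.83 in iPHet libraries (SD, n = 4 each), a difference of -9.38 percentage points. This difference was -10.7 points among odd-numbered and -8.11 points among even-numbered libraries. With the midpoint of the authors' bounds in place of the FPKM, the share was 13.6% ± 3.47 in iPKO and 26.3% ± 5.43 in iPHet libraries (SD, n = 4 each). The share rests in part on the Cox6b2 values that led to the choice of these genes, so it is not an independent result.

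Cox7a1 and Cox7a2 encode forms of subunit 7A, Cox7a1 in heart and skeletal muscle and Cox7a2 in most tissues. Cox7a2 (ENSMUSG00000032330, chromosome 9 from 79755241 to 79759853 of mm10) stood at 23.2, 34.2, 22.2 and 31.5 FPKM in iPKO libraries 1 to 4, against 55.8, 22.2, 49.1 and 19.2 FPKM in iPHet libraries 1 to 4. In the odd-numbered libraries iPKO was 2.32-fold lower, and in the even-numbered libraries iPKO was 1.59-fold higher. The log2 difference was -1.17 among odd-numbered and 0.64 among even-numbered libraries, and -0.27 (SE 0.35) over all. Cox7a1 (ENSMUSG00000074218, chromosome 7 from 30184171 to 30186028 of mm10) stood at 7.36, 8.15, 11.1 and 8.01 FPKM in iPKO libraries 1 to 4, against 15.4, 6.92, 16.1 and 10.3 FPKM in iPHet libraries 1 to 4. Its genotypes overlapped, with log2 differences of -0.73 among odd-numbered and -0.06 among even-numbered libraries, and of -0.40 (SE 0.25) over all.

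Cox7a1 made up 24.1%, 19.3%, 33.4% and 20.3% of the summed FPKM of the 7A pair in iPKO libraries 1 to 4, against 21.6%, 23.8%, 24.6% and 34.9% in iPHet libraries 1 to 4. The ranges of the genotypes overlapped, and iPKO 3 and iPHet 4 each stood above the other libraries of their genotype. The mean was 24.3% ± 6.44 in iPKO and 26.2% ± 5.91 in iPHet libraries (SD, n = 4 each). The difference was -1.97 percentage points over all libraries and 0.918 points without iPHet 4. It was 5.63 points between odd-numbered libraries and -9.56 points between even-numbered ones. The deposited FPKM of both genes lay outside the authors' bounds in all 8 libraries. Of 7 striated muscle markers, Actc1 was listed at 0 in all libraries. Ckm, Myh6 and Myl2 averaged 0, 0.0462 and 0.142 FPKM in iPKO and 0.0400, 0.101 and 0.170 FPKM in iPHet libraries. Myh7 and Tnnt2 averaged 0.0204 and 0.0980 FPKM in iPKO and 0.0120 and 0.0604 FPKM in iPHet libraries. The summed FPKM of the 7 markers was 4.69 to 7.37 in iPKO and 3.64 to 4.84 in iPHet libraries, most of it from Tnni3. Tnni3, the only one of the 7 that was tested, rose: it averaged 5.69 ± 0.987 FPKM in iPKO and 3.76 ± 0.552 FPKM in iPHet libraries (SD, n = 4 each, limma adjusted p = 0.0379). That call was lost with the replicate block (0.0686) and when any one of 6 libraries, all but iPHet 2 and iPKO 2, was left out (0.0706 to 0.0905). The part of these markers in the Cox7a1 values was not tested. Of 5 energy metabolism genes known for high expression in striated muscle, 2 were tested, Slc25a4 and Fabp3, and 0 were called. Fabp3, a cytosolic fatty acid carrier, averaged 108 ± 37.4 FPKM in iPKO and 177 ± 78.8 FPKM in iPHet libraries (SD, n = 4 each), and was called lower with the replicate block (limma adjusted p = 0.00802). Among all genes tested 15.8% were called without the block and 27.5% with it.

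**Figure D2:**
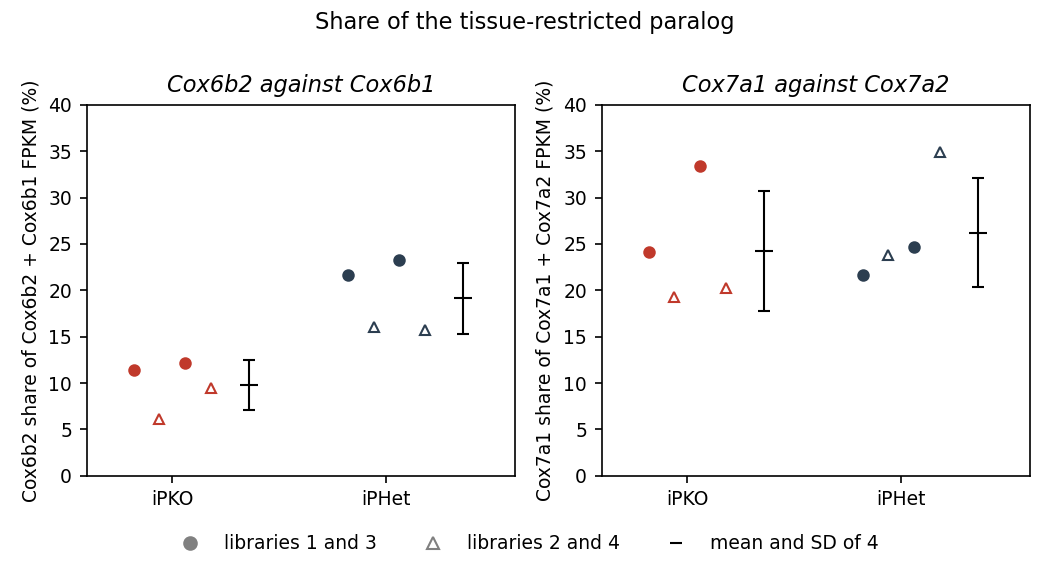
Share of the tissue-restricted paralog in the summed FPKM of its pair (vertical axes, percent, from 0) in iPKO and iPHet libraries, with symbols for library parity and bars for the mean and SD of 4 libraries. The Cox6b2 share runs from 6.14% to 12.1% in iPKO and from 15.8% to 23.2% in iPHet libraries, while the Cox7a1 shares of the genotypes overlap.

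Cox7a2l encodes a relative of subunit 7A that joins complex IV to complex III in respiratory supercomplexes, and C57BL/6 mice carry a shortened form of this protein. It stood at 94.8, 110, 96.8 and 116 FPKM in iPKO libraries 1 to 4, against 104, 72.8, 113 and 73.3 FPKM in iPHet libraries 1 to 4. The even-numbered iPHet libraries were the lowest of the 8, and iPKO 4 was the highest. The log2 difference was 0.22 (SE 0.16) over the 8, -0.18 between odd-numbered and 0.62 between even-numbered libraries. Cox7a2l (ENSMUSG00000024248, chromosome 17 from 83501919 to 83514333 of mm10) shares stretches of 100 bases with 1 other gene, Gm6969, whose mean was 0.127 FPKM.

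Cox8a encodes the form of subunit 8 found in most tissues. It stood at 56.9, 71.8, 56.4 and 79.8 FPKM in iPKO libraries 1 to 4, against 100.1, 62.4, 111 and 63.6 FPKM in iPHet libraries 1 to 4. Within the odd-numbered libraries iPKO was 1.86-fold lower, and within the even-numbered libraries it was 1.20-fold higher. The log2 difference was -0.31 (SE 0.21) over the 8, -0.88 between odd-numbered and 0.26 between even-numbered libraries. The gene (ENSMUSG00000035885) lies on chromosome 19 from 7215158 to 7217616 of mm10, and its deposited FPKM was outside the authors' bounds in all 8 libraries.

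Cox6a1 and Cox6a2 encode the liver and the heart and muscle form of subunit 6A. Cox6a1 had the highest level of the 9 genes, at 273, 307, 286 and 307 FPKM in iPKO libraries 1 to 4, against 403, 274, 426 and 297 FPKM in iPHet libraries 1 to 4. The log2 difference was -0.23 (SE 0.15) over the 8, -0.57 between odd-numbered and 0.11 between even-numbered libraries. Cox6a1 (ENSMUSG00000041697, chromosome 5 from 115345642 to 115348981 of mm10) shares stretches of 100 bases with AC148174.2, which makes its level uncertain. Cox6a2 was listed at 0 in 7 libraries and at 0.0905 FPKM in iPKO 2, and its locus overlaps that of Itgad. Cox4i2, the lung form of subunit 4 that responds to oxygen, stood at 0.425, 0.123, 0.420 and 0.228 FPKM in iPKO libraries 1 to 4, against 0, 0.287, 0.0853 and 0.157 FPKM in iPHet libraries 1 to 4. These genotypes overlapped, and Cox4i2 and Cox6a2 both stayed under the minimum mean of 1 FPKM in either genotype that a gene needed to be tested.

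By mean level the iPKO order was Cox6a1, Cox6b1, Cox7a2l, Cox8a, Cox7a2, Cox6b2, Cox7a1, Cox4i2 and Cox6a2, with 293, 153, 104, 66.2, 27.7, 16.3, 8.66, 0.299 and 0.0226 FPKM. In that order only Cox6b2 and Cox7a1 had overlapping libraries among neighbours. In iPHet libraries Cox6b2 stood 1 place higher, above Cox7a2, and the means in order were 350.0 for Cox6a1, 198 for Cox6b1, 90.8 for Cox7a2l, 84.2 for Cox8a, 48.6 for Cox6b2, 36.6 for Cox7a2, 12.2 for Cox7a1, 0.132 for Cox4i2 and 0 FPKM for Cox6a2. There the neighbours from Cox7a2l through Cox8a and Cox6b2 to Cox7a2 overlapped, and so did Cox4i2 and Cox6a2. Both orders rest on the deposited FPKM, which lay outside the authors' bounds in all 8 libraries for Cox6b1, Cox7a1, Cox7a2 and Cox8a. In each iPKO library the bounds of Cox6b1 lay below those of Cox7a2l, and in each iPHet library above them. In iPKO 1 they were 73.8 to 84.6 FPKM for Cox6b1 and 91.5 to 99.3 FPKM for Cox7a2l.

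Of the 9 genes 7 passed the filter on low values, and 1 of the 7, Cox6b2, had a limma adjusted p under 0.05, as it did with the replicate number as a block. Over all 12462 genes tested this share was 15.8%, with 9.53% lower and 6.3% higher in iPKO, and with the block it was 27.5% (16.6% lower). Libraries of the genotypes did not overlap for 25.1% of all genes (15% with iPKO lower) and for 1 of the 7, again Cox6b2. With libraries 1 and 3, and 2 and 4, averaged, 0 of the 7 were called, and 7 genes were called in all (1126 at an unadjusted p under 0.05). Since the same contrast led to the choice of the genes, nothing is read from these counts.

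For each of the 7 genes tested the log2 difference was lower among odd-numbered than among even-numbered libraries. All 7 genes tested were lower in both odd-numbered iPKO libraries than in both odd-numbered iPHet libraries, an arrangement found in 44.5% of all genes tested. For 4 of them, Cox6a1, Cox7a2, Cox7a2l and Cox8a, both even-numbered iPKO libraries were at the same time higher than both even-numbered iPHet libraries, against 9.41% of all genes tested. The median log2 difference of the 7 genes was -0.73 among odd-numbered and 0.11 among even-numbered libraries, against -0.05 and -0.02 over all genes tested. After each genotype's mean was subtracted, Cox7a2l and Cox8a had the closest profiles over the 8 libraries (Pearson r = 0.991), followed by Cox6a1 and Cox7a2l (0.977). Cox6b2 correlated with the other 6 at 0.484 (Cox6b1) to 0.794 (Cox7a1). All profiles come from the same 8 libraries, so these are descriptions of 8 points and carry no p.

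**Figure D3:**
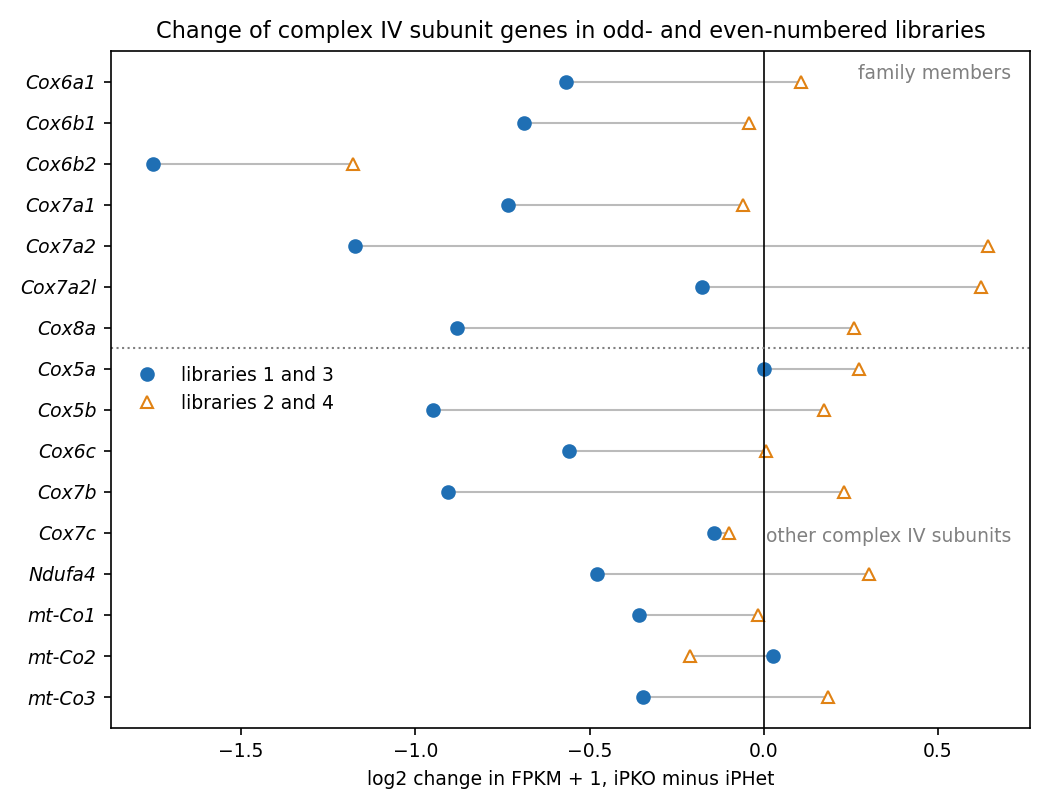
Log2 difference in FPKM + 1, iPKO minus iPHet (horizontal axis), of the 7 tested members above the dotted line and of 9 other complex IV subunit genes below it; blue circles use libraries 1 and 3, open triangles libraries 2 and 4, each a difference of means of 2 libraries. Cox6b2 is well below 0 at both symbols (-1.75 and -1.18), whereas Cox7a2 lies at -1.17 and 0.64.

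The same odd and even contrast was present in other short transcripts. In protein-coding genes whose longest coding transcript was under 700 bases, a class that holds 6 of the 7 tested members, the median log2 difference was -0.50 among odd-numbered and 0.16 among even-numbered libraries (184 genes). In the class from 1000 to under 1500 bases, which holds Cox7a2l at 1129 bases, it was -0.21 and 0.02 (991 genes), and at 4000 bases or more it was 0.02 and -0.07 (3773 genes). For 77 ribosomal protein genes, which are also short, the median was -0.47 among odd-numbered and 0.37 among even-numbered libraries. Their part in the values of the members was not tested.

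**Figure D4:**
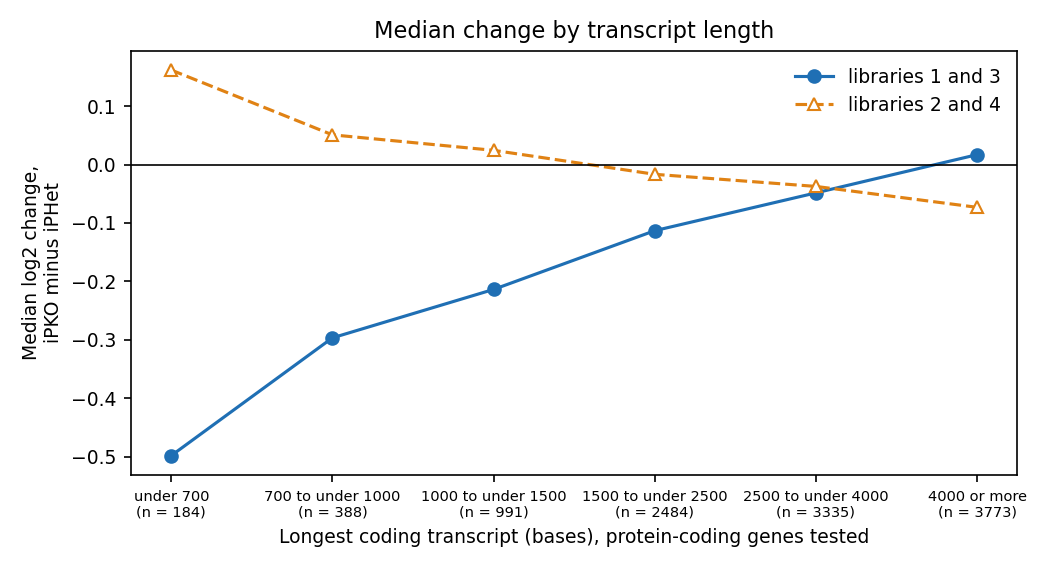
Median log2 difference, iPKO minus iPHet, on the log2(FPKM + 1) scale (vertical axis) of tested protein-coding genes by the length of their longest coding transcript (horizontal axis, bases, with the number of genes); circles use libraries 1 and 3 and triangles libraries 2 and 4. In the shortest class the medians are -0.50 and 0.16, and they draw together with length before crossing.

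Among the nuclear complex IV subunits outside the family, 0 of 6 tested were called by limma, without or with the replicate block. Over all genes tested 15.8% were called without the block and 27.5% with it. Cox5b, which holds a zinc ion on the matrix side, averaged 50.1 ± 9.80 FPKM in iPKO and 66.7 ± 17.6 FPKM in iPHet libraries (SD, n = 4 each, limma adjusted p = 0.237). Cox6c averaged 210 ± 15.7 FPKM in iPKO and 257 ± 39.1 FPKM in iPHet libraries (SD, n = 4 each, limma adjusted p = 0.142). Cox7c averaged 227 ± 9.93 FPKM in iPKO and 247 ± 9.79 FPKM in iPHet libraries (SD, n = 4 each, limma adjusted p = 0.212). Cox7b averaged 38.5 ± 3.68 FPKM in iPKO and 51.3 ± 18.4 FPKM in iPHet libraries (SD, n = 4 each, limma adjusted p = 0.368). Among odd-numbered libraries the log2 difference of all 6 was below 0 (median -0.52), by less than the second decimal for Cox5a, and in the even-numbered ones it was above 0 for 5 (median 0.20). These were Cox5a, Cox5b, Cox6c, Cox7b and Ndufa4, and Cox7c was the exception. Of the 3 subunits encoded by mitochondrial DNA, mt-Co1, mt-Co2 and mt-Co3, 0 were called, with limma adjusted p of 0.602, 0.752 and 0.876. The mean of mt-Co1, the subunit that holds the haem and copper of the reaction centre, was 2678 ± 417 FPKM in iPKO and 3121 ± 891 FPKM in iPHet libraries (SD, n = 4 each).

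Of 27 tested genes for complex IV assembly and for copper or haem delivery, 1 fell and 0 rose. Over all genes tested 9.53% were called lower and 6.3% higher in iPKO. The median log2 difference of the 27 was -0.08, against -0.04 over all genes tested. The gene that fell, Cox20, which guides the newly made mitochondrial subunit 2, averaged 18.4 ± 2.27 FPKM in iPKO and 24.0 ± 2.21 FPKM in iPHet libraries (SD, n = 4 each, limma adjusted p = 0.0411). Its call was lost with the replicate block (adjusted p = 0.0658 in limma) and whenever a library other than iPKO 2 was left out (0.0612 to 0.09998). With the block Cox10, Cox19 and Sco1 were called in its place (limma adjusted p of 0.0128, 0.0414 and 0.0207), all lower in iPKO. The blocked fit called 16.6% of all genes tested lower in iPKO, and 27.5% in either direction. Cox10, a haem-modifying enzyme, averaged 5.57 ± 0.971 FPKM in iPKO and 7.74 ± 1.03 FPKM in iPHet libraries (SD, n = 4 each).

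In the rest of the respiratory chain, 5 of 29 tested complex I genes fell and 0 rose: Ndufv3, Ndufb7, Ndufs7, Ndufa9 and Ndufs6. Beside this and the counts below, 9.53% of all genes tested were called lower and 6.3% higher in iPKO. Ndufv3, an accessory subunit of the NADH-binding arm, averaged 21.2 ± 1.66 FPKM in iPKO and 32.9 ± 1.97 FPKM in iPHet libraries (SD, n = 4 each, limma adjusted p = 0.00195). Its log2 difference was -0.75 among odd-numbered and -0.48 among even-numbered libraries. The call of Ndufs6 was lost when the block was added (limma adjusted p = 0.0660) and when any one of iPHet 1 to 3, iPKO 1 or iPKO 3 was left out (0.0543 to 0.0801). That of Ndufa9 was lost when iPHet 2, iPKO 1 or iPKO 3 was left out (0.0520 to 0.0565), but held with the block (0.0122). Of 4 complex II genes 0 were called, of 9 complex III genes Cyc1 fell, and of 16 ATP synthase genes Atp5h fell. The median log2 differences of these 4 lists were -0.17, -0.04, -0.14 and -0.22, and within the odd-numbered libraries they were -0.38, -0.32, -0.39 and -0.43, within the even-numbered ones 0.06, 0.16, 0.02 and 0.08. Cyc1 was called without 1 single library only, iPKO 4 (otherwise limma adjusted p of 0.0834 to 0.104), and Atp5h without 2 only, iPKO 2 and iPKO 4 (otherwise 0.0517 to 0.0940). With the block Cyc1 and Atp5h kept their calls (limma adjusted p of 0.0361 and 0.00449). Ndufv1 of complex I and Atp5a1 of ATP synthase, not called without the block, were called lower with it (limma adjusted p of 0.0419 and 0.0276). The blocked fit called 5 complex I and 2 ATP synthase genes, and 16.6% of all genes tested were called lower in it.

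Cytochrome c, the carrier that complex IV oxidises, also has a general and a testis gene. The general gene Cycs fell, with 13.5 ± 2.32 FPKM in iPKO and 18.9 ± 2.18 FPKM in iPHet libraries (SD, n = 4 each, limma adjusted p = 0.0470), a call lost with the block (0.0774) and whenever a library other than iPKO 4 was left out (0.0543 to 0.111). The testis gene Cyct was 2.82 ± 0.388 FPKM in iPKO and 2.87 ± 0.763 FPKM in iPHet libraries (SD, n = 4 each, limma adjusted p = 0.984). Of 8 testis-restricted genes of energy metabolism outside the family, Cyct was the 1 that passed 1 FPKM. Ldhc, a lactate dehydrogenase of sperm, averaged 0.211 FPKM in iPKO and 0.127 FPKM in iPHet libraries, and Pdha2 was listed at 0 in all libraries. The testis forms Cox7b2 and Cox8c averaged 0.0259 and 0.0250 FPKM in iPKO and 0.172 and 0 FPKM in iPHet libraries. Of 7 markers of testicular germ cells, Acr, Prm1 and Tnp1 were listed at 0 in all libraries, and the summed FPKM was 7.91 to 10.03 in iPKO and 5.10 to 6.16 in iPHet libraries. Prm2 was listed at 0 in all libraries but iPHet 4 (0.358 FPKM). Ddx4 rose, with 5.59 ± 0.854 FPKM in iPKO and 3.60 ± 0.606 FPKM in iPHet libraries (SD, n = 4 each, limma adjusted p = 0.0311), a call lost when any one of iPHet 1, iPHet 3, iPKO 1, iPKO 2 or iPKO 4 was left out (0.0535 to 0.0760). With the replicate block the call of Ddx4 held (limma adjusted p = 0.00585), and Sycp3, not called without it, was called higher (0.0430). Among all genes tested 15.8% were called without the block and 27.5% with it. Sycp3 averaged 2.12 ± 0.615 FPKM in iPKO and 1.52 ± 0.403 FPKM in iPHet libraries (SD, n = 4 each). Stra8 was called in neither fit, at a log2 difference of 0.45 (limma adjusted p = 0.381, and 0.146 with the block). The part of these markers in the Cox6b2 values was not tested. In bulk RNA, fewer cells of a type and less RNA per cell cannot be told apart.

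Of 6 genes proposed to regulate the Cox4 isoform switch, Lonp1 and Cxxc5 fell and 0 rose. Among all genes tested the shares were 9.53% lower and 6.3% higher in iPKO. Lonp1, the mitochondrial Lon protease, averaged 26.4 ± 0.524 FPKM in iPKO and 32.7 ± 1.54 FPKM in iPHet libraries (SD, n = 4 each, limma adjusted p = 0.00937). Cxxc5 had limma adjusted p = 0.0370, and kept its call only when iPHet 2 was the library left out (otherwise 0.0631 to 0.0916). With the replicate block Lonp1 and Cxxc5 stayed called (limma adjusted p of 0.0158 and 0.0303). Chchd2 and Hif1a were not called, at 182 ± 30.3 and 67.2 ± 4.45 FPKM in iPKO and 215 ± 17.9 and 62.6 ± 8.63 FPKM in iPHet libraries (SD, n = 4 each). Of 11 tested regulators of mitochondrial biogenesis Nrf1 fell and 0 rose in the fit without a block. Nrf1, a transcription factor of respiratory genes, averaged 36.8 ± 5.45 FPKM in iPKO and 51.5 ± 2.09 FPKM in iPHet libraries (SD, n = 4 each, limma adjusted p = 0.0174). Its log2 difference was -0.63 in odd-numbered and -0.34 in even-numbered libraries. With the replicate block Nrf1 stayed called (limma adjusted p = 0.0148), and Gabpb1 and Esrra were called higher in iPKO (0.0318 and 0.0165). The blocked fit called 27.5% of all genes tested, 16.6% of them all as lower. Gabpb1 averaged 46.0 ± 10.8 FPKM in iPKO and 31.4 ± 2.06 FPKM in iPHet libraries (SD, n = 4 each). Esrra averaged 7.74 ± 0.696 FPKM in iPKO and 5.88 ± 0.937 FPKM in iPHet libraries (SD, n = 4 each). Of the 12 genes listed, Ppargc1a was at or near 0 in all libraries. With libraries 1 and 3, and 2 and 4, averaged, 0 genes of any of these lists were called.

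Within 100 kb of Cox6b2 lie 13 other protein-coding genes, of which 7 were tested. Anywhere in the genome, 15.8% of the genes tested were called without the replicate block and 27.5% with it. The nearest expressed gene, Suv420h2, a histone methyltransferase 4278 bases away, rose: it averaged 66.6 ± 2.75 FPKM in iPKO and 44.7 ± 2.13 FPKM in iPHet libraries (SD, n = 4 each, log2 difference 0.56, SE 0.06, limma adjusted p = 0.00113). Fam71e2, 132 bases away, averaged 0.0330 FPKM in iPKO and 0.00714 FPKM in iPHet libraries. Ppp6r1 and Brsk1 fell by 0.25 and 0.37 on the log2 scale (limma adjusted p of 0.0370 and 0.0418), calls that held without only 2 and 1 of the 8 single libraries. The call of Suv420h2 held without any of the 8 (limma adjusted p up to 0.00550). With the replicate block Suv420h2, Ppp6r1 and Brsk1 kept their calls (limma adjusted p of 0.00399, 0.0141 and 0.0155). With the similar libraries averaged, the calls of Suv420h2, Ppp6r1 and Brsk1 were lost (limma adjusted p of 0.441, 0.661 and 0.639, and of 0.211, 0.359 and 0.332 with an odd/even term). Rpl28, Hspbp1, Ube2s and Shisa7 were not called (limma adjusted p of 0.878, 0.659, 0.181 and 0.641).

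Over the 8 libraries the log2(FPKM + 1) profiles most like that of Cox6b2, among the 8386 protein-coding genes whose mean reached 5 FPKM in iPKO or iPHet, were those of Commd7 (Pearson r = 0.997), Yif1b (0.993), Ucp2 (0.988), Tm2d2 (0.987) and Emc10 (0.985). Ucp2, a carrier of the inner mitochondrial membrane, averaged 53.7 FPKM in iPKO and 82.2 FPKM in iPHet libraries. Their log2 differences between genotypes were -0.22, -0.53, -0.60, -0.43 and -0.60, each smaller in size than that of Cox6b2. This ranking used profiles that hold the genotype difference of Cox6b2, so it favoured genes that are lower in iPKO, and nothing is read from that direction. After each genotype's mean was subtracted, the most alike were Pef1, Palld, Commd7, Akt2 and Nde1 (Pearson r of 0.992, 0.991, 0.990, 0.987 and 0.986), with log2 differences of -0.08, 0.11, -0.22, 0.13 and -0.05. These genes are named for the likeness of 8 values taken from the same libraries.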

How the data were processed

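RNA was sequenced from 4 iPKO and 4 iPHet libraries as paired reads of 100 bases. Per the file headers, the authors deposited for each library 1 FPKM value a gene, its lower and upper bound and a status. The submitters' processing notes name Trimmomatic, a read trimmer, and mm10; which aligner and which program made the FPKM values is not given in the sources used here. Whether the counting used strand and whether FPKM was scaled between libraries are not given either, and values of short transcripts depend on how the program corrects for fragment length. For 26.4% to 33.2% of genes above 5 FPKM, and for 33 of the 72 values of the 9 members, the FPKM lay outside its own bounds.

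The 39013 rows of each file were summed to 38991 identifiers, of which 96.0% were in GENCODE vM21. File starts were raised by 1, since they count from 0. The summed FPKM per library was 411827 to 458856. No member had a failed status. Values were tested as log2(FPKM + 1) with limma 3.58.1 (with a mean trend, in R 4.3.3), all 8 libraries and no covariate, on the 12462 genes whose mean reached 1 FPKM in iPKO or iPHet. A call is a p under 0.05 after Benjamini-Hochberg adjustment, and fold values are ratios of mean FPKM. The test was checked on simulated data. Deviations from the genotype means correlated at 0.104, 0.162, 0.204 and 0.107 between libraries of the same number, above the limit of 0.1 for pairing. Between libraries of another number but the same parity they correlated at 0.0770, 0.0862, 0.0905 and 0.124 (iPHet 2 with iPKO 4). Between opposite parities the range was -0.205 to -0.0579. The labels do not state a pairing, and these values do not tell one by number from the odd/even split. The blocked fit uses the library number. The members, the lists and the odd/even split were chosen with earlier results of these data known. Named genes outside the family were Prmt5, the called genes of the complex IV lists with up to 4 others of smallest p, the neighbours of Cox6b2, and the 5 genes most like it in each of 2 rankings; genes named from the other lists were chosen after their values were seen. Of 1 listed assembly gene, Coa1, no row was used here. Promoter sequences are from RefSeq (GRCm38.p6), whose coordinates are those of mm10. Alternatives were other pseudocounts, filters and scalings, blocks, averages, single libraries left out and, added after the data were seen, the midpoint of the bounds and shares within odd or even libraries.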

Additional observations from a re-analysis of the deposited data

Results flagged for a closer look

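Cox6a2 was listed at 0.0905 FPKM in iPKO 2 and at 0 in the other 3 iPKO libraries. With the other 3 at 0, any value above 0 would have been marked, and the authors' bounds of this value run from 0 to 0.452 FPKM. Over the 17 groups of 4 libraries examined in this way, chance marks about 1 in 20.

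For 4 genes the difference between genotypes ran opposite ways in the odd-numbered and the even-numbered libraries. The log2 difference, iPKO minus iPHet, was -0.57 for Cox6a1, -1.17 for Cox7a2, -0.18 for Cox7a2l and -0.88 for Cox8a in the odd-numbered libraries. In the even-numbered libraries it was 0.11 for Cox6a1, 0.64 for Cox7a2, 0.62 for Cox7a2l and 0.26 for Cox8a. Each set holds 2 libraries of a genotype, and the difference between the sets was not tested.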

How the results depend on the processing

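The log2 difference of Cox6b2 ran from -1.63 to -1.29 with single libraries left out, a description, since the gene was chosen for this difference. It stayed at -1.47 but was not called with libraries 1 and 3, and 2 and 4, averaged, or with an odd/even term on these averages; Prmt5 at -2.13 was not called there either. With the averages 0 members and 0 genes of the respiratory, assembly and regulator lists were called, and 7 genes in all, or 6 with the odd/even term; these fits have fewer samples. With the replicate block 3427 genes were called, against 1973 without it, with 3 assembly genes, 2 of ATP synthase, 0 of cytochrome c, 1 of the striated-muscle list and 3 biogenesis regulators; it changed no call of a member. An odd/even term on all libraries gave 4729 calls among the 12462 genes tested. Among these were 7 assembly genes, 2 of complex III, 3 of ATP synthase, 1 of the striated-muscle list and 3 biogenesis regulators. With single libraries left out, 1264 to 1416 genes were called, the fewest without iPHet 4 (1264) and iPKO 1 (1309), and list counts were 0 to 1 for assembly, complex III, ATP synthase and cytochrome c, 3 to 6 for complex I, and 1 to 2 for the regulators of the Cox4 switch and of biogenesis. Without a filter on low values, and with quantile or median-ratio scaling, 0 genes of assembly, complex III, ATP synthase and cytochrome c were called; the scalings gave 1 Cox4 regulator each and 3 or 2 of biogenesis, and a minimum of 5 FPKM gave 2 of ATP synthase. Of the genes called, 39.8% were higher in iPKO, against 49.7% with quantile normalization and 50.5% with median-ratio scaling. In odd-numbered libraries alone the log2 differences were -0.57 for Cox6a1, -0.69 for Cox6b1, -1.17 for Cox7a2, -0.18 for Cox7a2l and -0.88 for Cox8a, and in even-numbered ones 0.11, -0.043, 0.64, 0.62 and 0.26. The difference in the Cox7a1 share was 5.63 points in odd-numbered and -9.56 points in even-numbered libraries, and ran from -5.01 to 0.918 with single libraries left out (0.918 without iPHet 4). The cause of these changes was not tested. The depth is unknown, so the precision of the low values of Cox4i2 and Cox6a2 cannot be given.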
